A study of Mus musculus with 42 samples.

Results

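Mouse uteri lacking Hoxd9, Hoxd10 and Hoxd11 on both chromosomes (Hoxd9,10,11-/-, called DKO here) were compared with uteri lacking Hoxa9, Hoxa10 and Hoxa11 on both chromosomes (Hoxa9,10,11-/-, called AKO). Each genotype had 3 arrays, taken by the sample titles from 42 arrays in the series, and every gene with its own symbol on the array entered, 19938 genes in all. The other uterus groups, also 3 arrays each, were AHDK (Hoxa9,10,11+/-d9,10,11-/-), AKDH (Hoxa9,10,11-/-d9,10,11+/-) and wild type (WT). AHDK therefore lacks the 3 Hoxd genes and has 1 mutant set of the 3 Hoxa genes, and AKDH is its mirror image. DKO and AKO vas deferens, the male duct leading from the epididymis, gave 3 arrays each for a comparison between the sexes. All mice were adult, of a mixed CD1/129 background and 3 to 7 months old, and the females were taken in diestrus, the quiet phase of the oestrous cycle. The mutations were carried in the whole animal. The sources used here do not say how the mutant alleles were built.

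Hox genes encode homeodomain transcription factors and lie in the clusters HoxA, HoxB, HoxC and HoxD, where gene order follows the position along the body at which each gene acts. Members at the posterior end of HoxA and HoxD pattern the genital ducts. In the female, Hoxa9, Hoxa10 and Hoxa11 are known from the oviduct, the uterus and the lower uterus, and Hoxa10 and Hoxa11 are needed by the uterine stroma for decidualisation, the change that lets an embryo implant. Hoxd9, Hoxd10 and Hoxd11 are their neighbours by sequence and are expressed in the same ducts, so a comparison of both losses asks which genes depend on one set more than on the other.

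Total RNA was read on Affymetrix whole-transcript arrays. The deposited values are on a log scale, taken here as log2, and are relative to the middle array of the 21 female arrays, so a value of 0 is no absolute level and levels of different genes cannot be set side by side. Differences are DKO minus AKO on the log2 scale, with the SE from limma, and calls were made where limma's adjusted p, by Benjamini-Hochberg over 19938 genes, was below 0.05. Beyond naming the replicates biological, the labels do not say which animal each array came from. The p-values measure the spread between these arrays. With bulk tissue, fewer cells of a type and less RNA per cell cannot be told apart in any of the results.

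Of the targeted genes, Hoxa11 marked the AKO uteri. Its values were 1.81, 2.01 and 2.66 in DKO, against -1.59, 0.67 and -0.60 in AKO. All AKO arrays lay below all DKO arrays, although AKO replicate 2 was well above the other AKO arrays. The difference of 2.66 (SE 0.56) was not called (limma adjusted p = 0.0855). Hoxa10 was 0.37, 0.38 and 0.79 in DKO, against -1.19, 0.08 and -0.38 in AKO, a difference of 1.01 (adjusted p = 0.343). Hoxa9 gave a difference of 0.07 (95% interval -0.77 to 0.90) and its groups overlapped.

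The Hoxd genes did not mark the DKO uteri. Hoxd9 was 0.00, 0.19 and 0.31 in DKO, against -0.33, 0.53 and -0.01 in AKO, and Hoxd11 was 0.17, 0.77 and 1.11 against -0.03, 0.52 and 0.30. Hoxd10, at 0.20, 0.42 and 0.51 in DKO against -0.62, -0.05 and -0.17 in AKO, was higher in the uteri labelled as lacking it (difference 0.66, adjusted p = 0.381). Where each probe set lies within its gene is unknown here. The same Hoxd9 probe set was 1.01 lower in DKO than in AKO vas deferens (adjusted p = 7e-05), so it followed the genotype there. In uterus it did not, with means of 0.17 in DKO and 0.27 in AHDK, against 0.06 in AKO. Hoxd10 and Hoxd11 were not called between DKO and AKO vas deferens, at 0.30 and -0.29 (limma adjusted p = 0.406 and 0.297). The labels of the DKO uteri are thus not borne out by any targeted Hoxd gene. Of these genes, only Hoxd9 was seen to follow the genotype in vas deferens. Every direction given for DKO uterus rests on its label.

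**Figure D1:**
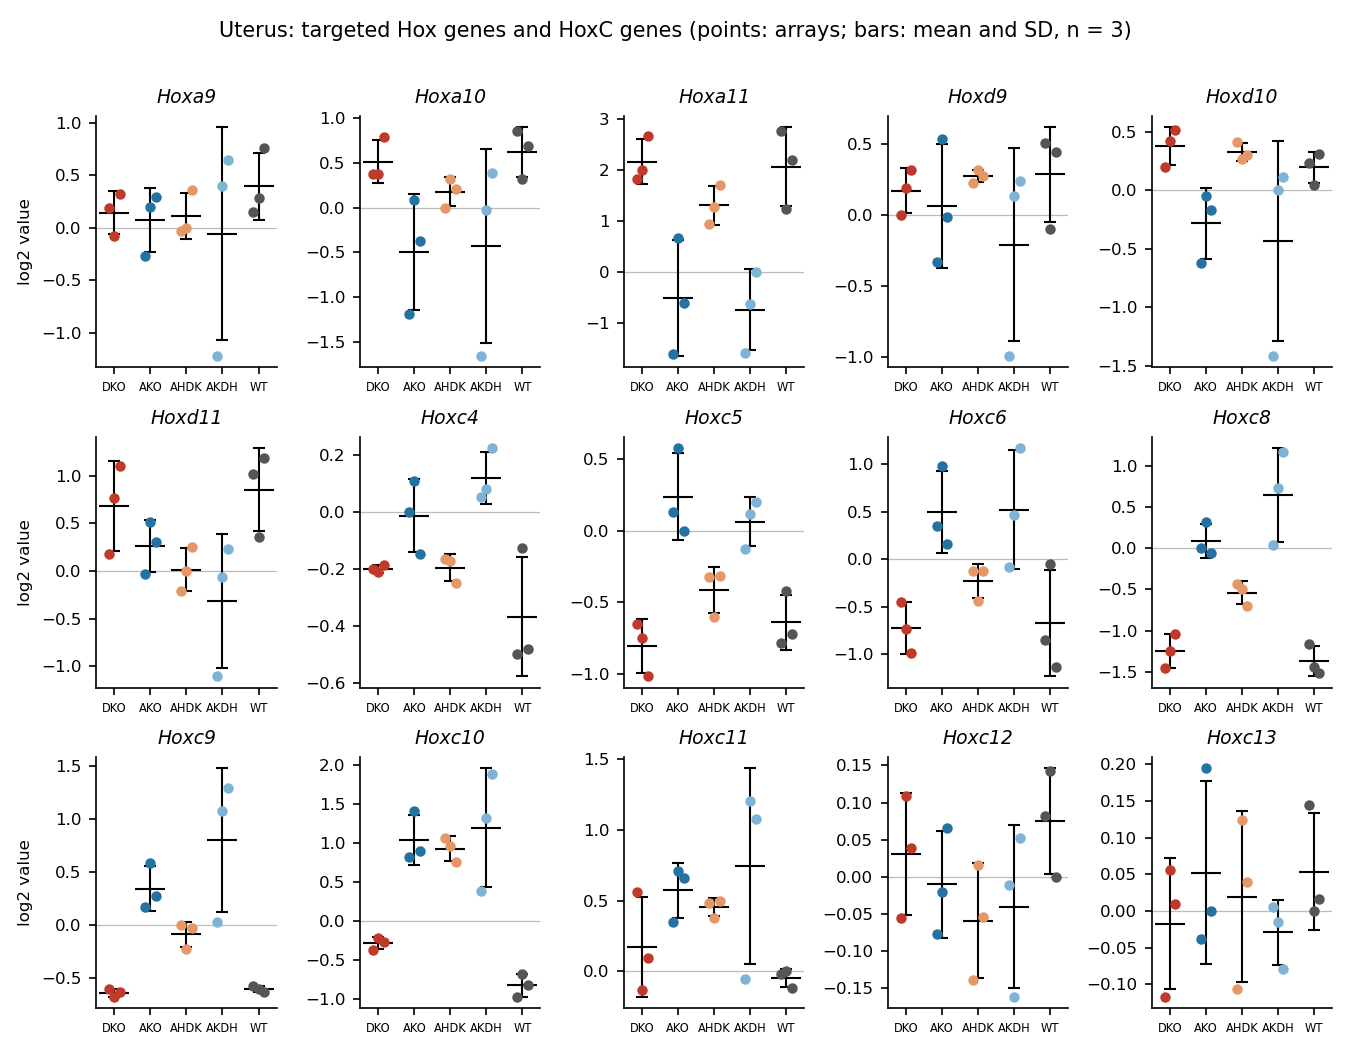
Deposited log2 values of the targeted Hox genes and of the HoxC genes on each uterus array (points), with group mean and SD (bars, n = 3), for DKO, AKO, AHDK, AKDH and WT from left to right. Hoxa11 is below DKO on all 3 AKO arrays, Hoxd9 is not lower in DKO than in AKO, and Hoxc8 lies between -1.45 and -1.04 in DKO and between -0.06 and 0.32 in AKO.

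Between DKO and AKO uterus, 37 of 19938 genes were called (0.186%), of which 22 were higher in DKO (0.11%) and 15 were lower (0.0752%). The sizes ran from 0.37 to 3.37 on the log2 scale. The values of both groups stood apart for all 37, as they did for 3458 of all genes (17.3%). At an unadjusted p below 0.05 there were 2714 genes (13.6%), 1438 higher in DKO and 1276 lower, and the median difference of all genes was 0.00. A large difference was often not a called one, since 247 genes differed by at least 1 and 19 of them were called.

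The count depended on single arrays. Leaving out DKO replicate 1, 2 or 3 gave 34, 15 and 11 called genes, and leaving out AKO replicate 1, 2 or 3 gave 7, 15 and 150. All 37 differences kept their sign in each of these fits. Slc26a7, Rxfp2, Aldh1a2, Adamts7, Gimap9 and Metap1d were called in all 6 of them, and each of the other called genes lost its call in at least 1. A fit on the 6 DKO and AKO arrays alone, which has fewer arrays to estimate the spread from, called 1 gene, Robo2. With a score of small nuclear and nucleolar RNA genes as a covariate 6 genes were called, the same that were called in all 6 fits with an array left out. That score was -0.12, 0.13 and -0.02 in DKO, against 0.43, 0.23 and 0.00 in AKO, with overlap, and WT arrays stood above both at 0.93, 0.51 and 0.61. What part it has in the calls was not tested beyond that covariate.

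Cell surface receptors were among the largest rises. Rxfp2 encodes the receptor of insulin-like 3, the hormone that guides testis descent in males, and belongs to the relaxin receptor family. Its values were 1.99, 3.25 and 2.47 in DKO, against -0.15, 0.01 and 0.16 in AKO. The lowest DKO array was far above the highest AKO array, and the difference was 2.56 (SE 0.25, limma adjusted p = 0.00385). WT uteri (3.06, 2.61 and 2.69) were as high as DKO. Of 8 measured relaxin family genes Rxfp2 was called, and the next by p were Rxfp3 at -0.17 and Rln1, relaxin itself, at -0.55 (adjusted p = 0.28 and 0.324).

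Robo2, a receptor of the Slit guidance proteins, had 2.46, 2.24 and 2.24 in DKO, against -0.06, -0.06 and -0.16 in AKO. The groups were tight and far apart (difference 2.40, SE 0.36, adjusted p = 0.026). Its call was lost in 5 of the 6 fits that left out an array, where the difference stayed between 2.33 and 2.44. WT arrays were high as well, at 3.55, 1.59 and 2.40. Among the 7 Slit and Robo genes the ligand Slit2 ran the other way, with -0.55, -0.97 and -0.88 in DKO against 0.40, 0.31 and 0.00 in AKO, a difference of -1.04 that was not called (adjusted p = 0.2).

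Aldh1a2, which makes retinoic acid from retinaldehyde in many embryonic and adult tissues, had 1.85, 2.02 and 1.72 in DKO, against -0.73, -0.48 and -0.12 in AKO. DKO was uniformly high, and the difference was 2.30 (SE 0.23, adjusted p = 0.00385). WT lay between both mutants at 1.37, 0.74 and 0.94. Of 17 genes that handle retinoic acid, 1 was called. The retinol-binding protein receptor Stra6 (1.29) and the retinoic acid receptor Rarb (0.74) were higher in DKO without being called (adjusted p = 0.163 and 0.218), and the carrier Crabp2 was lower (-1.46, adjusted p = 0.223).

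The promoters of Rxfp2 and Aldh1a2 are printed because both genes rose strongly and kept their call whichever array was left out, yet their start sites differ in composition. Each sequence runs from 250 bases before to 50 after the start of the gene, from RefSeq (GRCm38.p6, plus strand), at chr5:150018425-150018724 for Rxfp2 and chr9:71215539-71215838 for Aldh1a2.
Rxfp2: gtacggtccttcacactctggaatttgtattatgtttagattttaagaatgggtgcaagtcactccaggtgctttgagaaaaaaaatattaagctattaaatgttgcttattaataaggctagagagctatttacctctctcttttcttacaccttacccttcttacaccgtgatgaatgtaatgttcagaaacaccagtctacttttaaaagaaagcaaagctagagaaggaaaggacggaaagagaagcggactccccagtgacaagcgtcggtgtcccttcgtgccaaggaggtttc
Aldh1a2: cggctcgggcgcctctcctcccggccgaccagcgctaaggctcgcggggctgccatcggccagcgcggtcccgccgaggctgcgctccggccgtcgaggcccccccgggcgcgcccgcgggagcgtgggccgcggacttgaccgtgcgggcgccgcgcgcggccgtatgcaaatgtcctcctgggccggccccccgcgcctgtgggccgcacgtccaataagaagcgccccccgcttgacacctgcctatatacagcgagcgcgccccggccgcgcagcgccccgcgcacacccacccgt
The Rxfp2 window has 7 CpG dinucleotides and 40.3% G and C, and the Aldh1a2 window has 50 CpG dinucleotides and 78% G and C. Neither holds TTTACG or TTTATG, the 6 letters that posterior Hox proteins are known to bind, on either strand. Of the 37 called genes 23 had a promoter in the RefSeq table. TTTACG or its reverse complement CGTAAA stood in 1 of these (4.35%), against 512 of 15614 promoters (3.28%), and TTTATG or CATAAA in 2 (8.7%), against 1522 (9.75%). Either motif stood in 3 called promoters (13%), close to 1991 of all (12.8%).

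Genes of ion transport held the largest difference of all called genes. Slc26a7, an anion exchanger of epithelia, had 2.39, 3.89 and 2.37 in DKO, against -0.58, -0.48 and -0.40 in AKO. DKO replicate 2 stood above the other DKO arrays, but the lowest DKO array was still far over the highest AKO array (difference 3.37, SE 0.39, adjusted p = 0.00701). WT uteri had 2.17, 1.03 and 1.82. Clca2, a regulator of chloride conductance, had 0.44, 0.46 and 0.72 in DKO against -0.07, -0.04 and -0.10 in AKO (difference 0.61, adjusted p = 0.0345). In the list of 24 ion and water transport genes these were the called members, and the median difference of the list was 0.04.

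**Figure D2:**
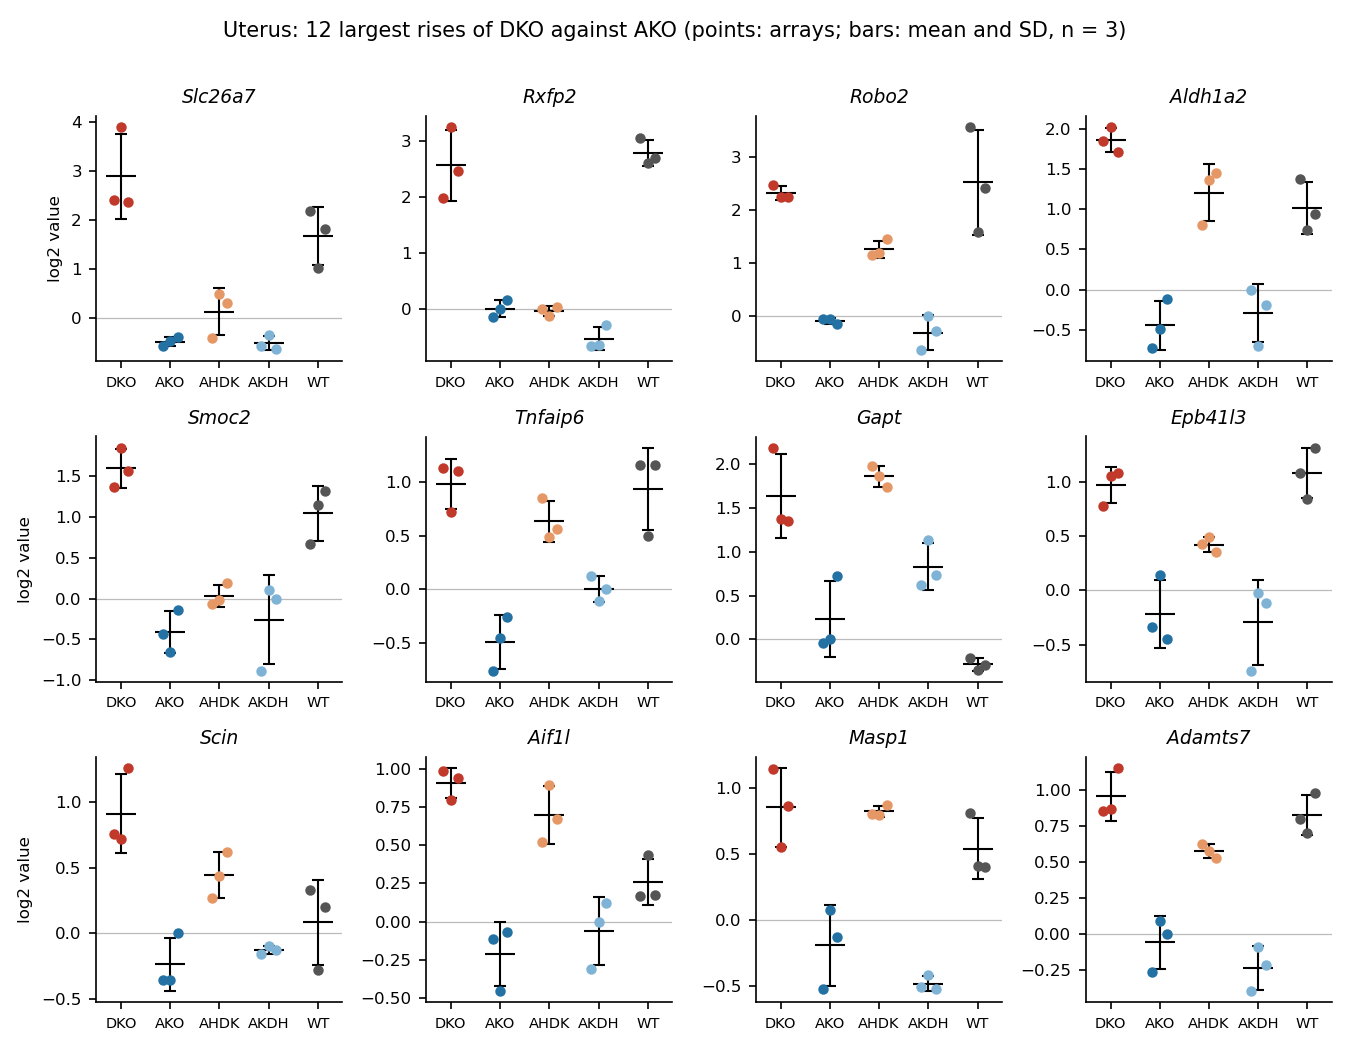
Deposited log2 values of the 12 genes with the largest called rises of DKO over AKO uterus, on each array (points) with group mean and SD (bars, n = 3), for DKO, AKO, AHDK, AKDH and WT from left to right; the vertical axes differ between genes. DKO and AKO do not overlap in any panel, WT is close to DKO for Rxfp2 and Robo2, and AHDK is near 0 for Rxfp2 and Slc26a7.

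Smoc2, Tnfaip6 and Adamts7, whose products are secreted into the matrix, rose too. Smoc2, a secreted calcium-binding matrix protein, had 1.37, 1.85 and 1.57 in DKO, against -0.43, -0.66 and -0.14 in AKO (difference 2.01, SE 0.25, adjusted p = 0.00923). Tnfaip6, which binds hyaluronan and cross-links it, as in the expanding matrix around the ovulated egg, had 1.13, 0.72 and 1.10 in DKO, against -0.76, -0.46 and -0.26 in AKO. The lowest DKO array was well above the highest AKO array (difference 1.47, SE 0.19, adjusted p = 0.0115). The metalloproteinase Adamts7 had 0.85, 0.87 and 1.15 in DKO, against -0.26, 0.09 and 0.00 in AKO (difference 1.01, SE 0.12, adjusted p = 0.00701). For each of these genes the WT mean was nearer to DKO than to AKO. The list of collagens and matrix genes held no called gene (limma), with 19 of 31 higher in DKO and a median of 0.07, and the list of matrix proteases and inhibitors held none either.

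Tnfaip6 was the called member of 19 stromal and decidual genes, whose median difference was 0.11. Dio2, the deiodinase that activates thyroid hormone, came next with 1.77, 1.77 and 1.29 in DKO against -0.83, -0.76 and 0.08 in AKO. The difference of 2.11 separated the groups and missed the call (adjusted p = 0.0728). Hand2, a stromal transcription factor under progesterone, was 1.20 higher in DKO (adjusted p = 0.163), and Tcf21 was 0.76 higher (adjusted p = 0.176).

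Secreted signalling proteins changed in both directions. Sfrp1, a Wnt antagonist, had 0.06, 0.20 and 0.58 in DKO, against -0.87, -0.49 and -0.65 in AKO (difference 0.95, SE 0.15, adjusted p = 0.0313). WT was lower still, at -1.31, -1.66 and -1.60, so both mutants lay above it. Of 34 Wnt pathway genes Sfrp1 was called, while 9 were higher and 3 lower at an unadjusted p below 0.05, against 7.21% and 6.4% of all genes. Sfrp2 (1.99, adjusted p = 0.109) and Dkk2 (0.98, adjusted p = 0.0837), both Wnt antagonists, were higher in DKO and Wnt2b lower (-1.27, adjusted p = 0.0983), none of them called.

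Bmp3, a member of the BMP family that opposes other BMPs, had 0.40, 0.32 and 0.18 in DKO, against -0.49, -0.34 and -0.23 in AKO (difference 0.65, SE 0.10, adjusted p = 0.0282). Bmp7 had 0.91, 1.03 and 0.67 in DKO, against -1.13, -0.37 and -0.49 in AKO. At a difference of 1.53 it lay just outside the threshold (adjusted p = 0.051), among 17 genes with an adjusted p from 0.05 to 0.06. Of 29 BMP and TGF-beta genes 22 were higher in DKO, as were 10235 of all 19938 genes, and the median was 0.18. Gdnf, a neurotrophic factor of the same superfamily that was picked out after its values were seen, rose by 0.85 (adjusted p = 0.0282).

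Among fibroblast growth factors Fgf16 fell. It had -0.45, 0.00 and -0.82 in DKO, against 1.13, 0.99 and 1.42 in AKO (difference -1.60, SE 0.23, adjusted p = 0.0257), and WT was like DKO at -0.30, -0.26 and -0.65. It was the called member of 20 FGF ligands and receptors. Of these 14 were lower in DKO, as were 9703 of all 19938 genes, and 5 were lower at an unadjusted p below 0.05, against 6.4% of all genes. Fgf18 had -0.45, -0.30 and -0.70 in DKO, against 0.13, 0.14 and 0.31 in AKO (adjusted p = 0.0688). Fgf1 (-1.45) and the receptor Fgfr2 (-0.55) were lower and not called, and their groups did not overlap.

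Scin, Epb41l3, Aif1l and Masp1 rose by similar amounts. Scin, an actin-severing protein (difference 1.15), Epb41l3, which ties membrane proteins to the cytoskeleton (1.19), and Aif1l, a relative of the actin-binding protein Aif1 (1.12), were called with adjusted p-values of 0.0282, 0.0401 and 0.00923. Masp1, the protease that starts the lectin pathway of complement, had 1.15, 0.55 and 0.86 in DKO, against -0.53, 0.08 and -0.13 in AKO (difference 1.05, adjusted p = 0.0345). It was the called member of 26 complement genes, whose median was 0.11.

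Gapt, an adaptor protein of blood cells, had 2.19, 1.37 and 1.36 in DKO, against -0.04, 0.00 and 0.73 in AKO (difference 1.41, SE 0.24, adjusted p = 0.0435). WT was below both mutants, at -0.21, -0.36 and -0.30. Gimap9, a GTPase of lymphocytes singled out after its values were seen, had 0.58, 0.43 and 0.48 in DKO, against -0.39, -0.42 and -0.27 in AKO (difference 0.85, adjusted p = 0.00701). Most markers of white blood cells lay in the same direction. All 5 macrophage, 4 neutrophil, 4 eosinophil and 4 T and NK cell markers were higher in DKO, and none was called. Of all 19938 genes, 10235 were higher in DKO. The B cell markers were mixed, with Cd79a at 0.43 and Ms4a1 at -0.06, neither of them called. The mean of the macrophage markers ran from 0.35 to 0.98 in DKO and from 0.01 to 0.47 in AKO, with overlap. Neutrophil markers averaged 0.78 to 2.62 in DKO and -0.24 to 0.70 in AKO, eosinophil markers 0.59 to 1.15 and -0.22 to 0.27, and T and NK cell markers 0.58 to 0.81 and -0.14 to -0.05. Their part in the rise of Gapt and Gimap9 was not tested.

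The remaining called rises, named after their values were seen, were small. Metap1d, a methionine aminopeptidase of mitochondria, rose by 0.66 and kept its call without any single array. Snx24, a sorting nexin, rose by 0.53. Rpl38, a protein of the large ribosomal subunit with 4 probe sets, rose by 0.43, and its probes may also read processed copies of the gene. The uncharacterised transcripts D430041D05Rik and 4921524J17Rik completed the 22.

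Among the 15 falls, Upk1a changed most. It encodes a uroplakin, a membrane protein of the bladder lining. Its values were -1.65, -1.36 and -0.74 in DKO, against 1.16, 1.86 and 0.50 in AKO. Every AKO array was above every DKO array, and both groups spread widely (difference -2.42, SE 0.40, limma adjusted p = 0.0401). WT was as low as DKO, at -1.52, -1.42 and -1.43. Of 6 uroplakins 5 were lower in DKO and 1 was called, with Upk3b at -1.34 and Upk1b at -0.97 (adjusted p = 0.261 and 0.464).

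Mesothelium genes were lower in DKO as well, while urothelium markers other than Upk1a were mixed. The mean of 4 urothelium markers, Upk1a among them, was -0.65, -0.73 and -0.30 in DKO, against 0.32, 0.57 and -0.01 in AKO. Of the others, Upk1b was lower (-0.97), Upk2 differed little (-0.13) and Upk3a was slightly higher (0.10), none of them called. The mean of 9 mesothelium genes was lower on all DKO arrays, between -1.02 and -0.35, than on all AKO arrays, between -0.11 and 0.19. Mesothelium is the layer of cells that cover the organ's outer surface. Of these 9 genes 8 were lower in DKO and none was called by limma (5 at an unadjusted p below 0.05, against 6.4% of all genes). Muc16, the surface mucin also known as CA125, was nearest to a call at -0.92 (adjusted p = 0.0688). What part of the fall of Upk1a goes with these cells was not tested.

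The promoter of Upk1a is shown because it is the largest fall and holds a match to a posterior Hox motif. It lies on the minus strand at chr7:30612685-30612984 (RefSeq, GRCm38.p6), and the capitals mark CATAAA, the reverse complement of TTTATG, which begins at position 140 of the window.
Upk1a: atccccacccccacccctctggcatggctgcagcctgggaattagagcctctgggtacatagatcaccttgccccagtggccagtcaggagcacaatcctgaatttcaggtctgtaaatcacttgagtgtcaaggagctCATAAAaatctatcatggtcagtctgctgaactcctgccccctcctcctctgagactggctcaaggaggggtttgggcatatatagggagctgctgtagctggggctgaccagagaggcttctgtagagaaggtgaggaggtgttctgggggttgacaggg
The window holds 0 CpG dinucleotides and 54.7% G and C. The match is a description of the letters and not of a bound site. Abca4, another large fall, held neither motif in the same window. Among called promoters either motif stood in 13%, against 12.8% of all.

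Rtn1, a reticulon of the endoplasmic reticulum known from neurons, had -2.64, -2.47 and -1.46 in DKO, against 0.00, 0.51 and -0.01 in AKO (difference -2.35, SE 0.41, adjusted p = 0.0469). Abca4, a lipid transporter known from photoreceptors, had -0.67, -1.06 and -0.86 in DKO, against 1.76, 1.80 and 0.65 in AKO (difference -2.26, SE 0.34, adjusted p = 0.0282). AKO replicate 3 was nearest to DKO for Abca4 and Upk1a. Nptx1, a secreted pentraxin of synapses, had -0.62, -0.63 and -0.27 in DKO, against 0.52, 1.45 and 0.38 in AKO (difference -1.29, adjusted p = 0.0469).

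Further falls were smaller. Phyhip, named for its binding to a peroxisomal hydroxylase, fell by 1.00, Peli3, an E3 ubiquitin ligase of the Pellino family, by 0.77, and Cystm1, a small membrane protein, by 0.77. Mlip, a lamin-binding protein of muscle, had -0.42, -0.45 and -0.40 in DKO, against 0.15, 0.07 and 0.15 in AKO (difference -0.55, adjusted p = 0.026). Gxylt1, which adds xylose to sugars on Notch, fell by 0.44. Ldoc1 and the uncharacterised Gm15612, both named after their values were seen, fell by 0.37 and 0.53. Peli3 lost its call in every fit that left out an array.

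**Figure D3:**
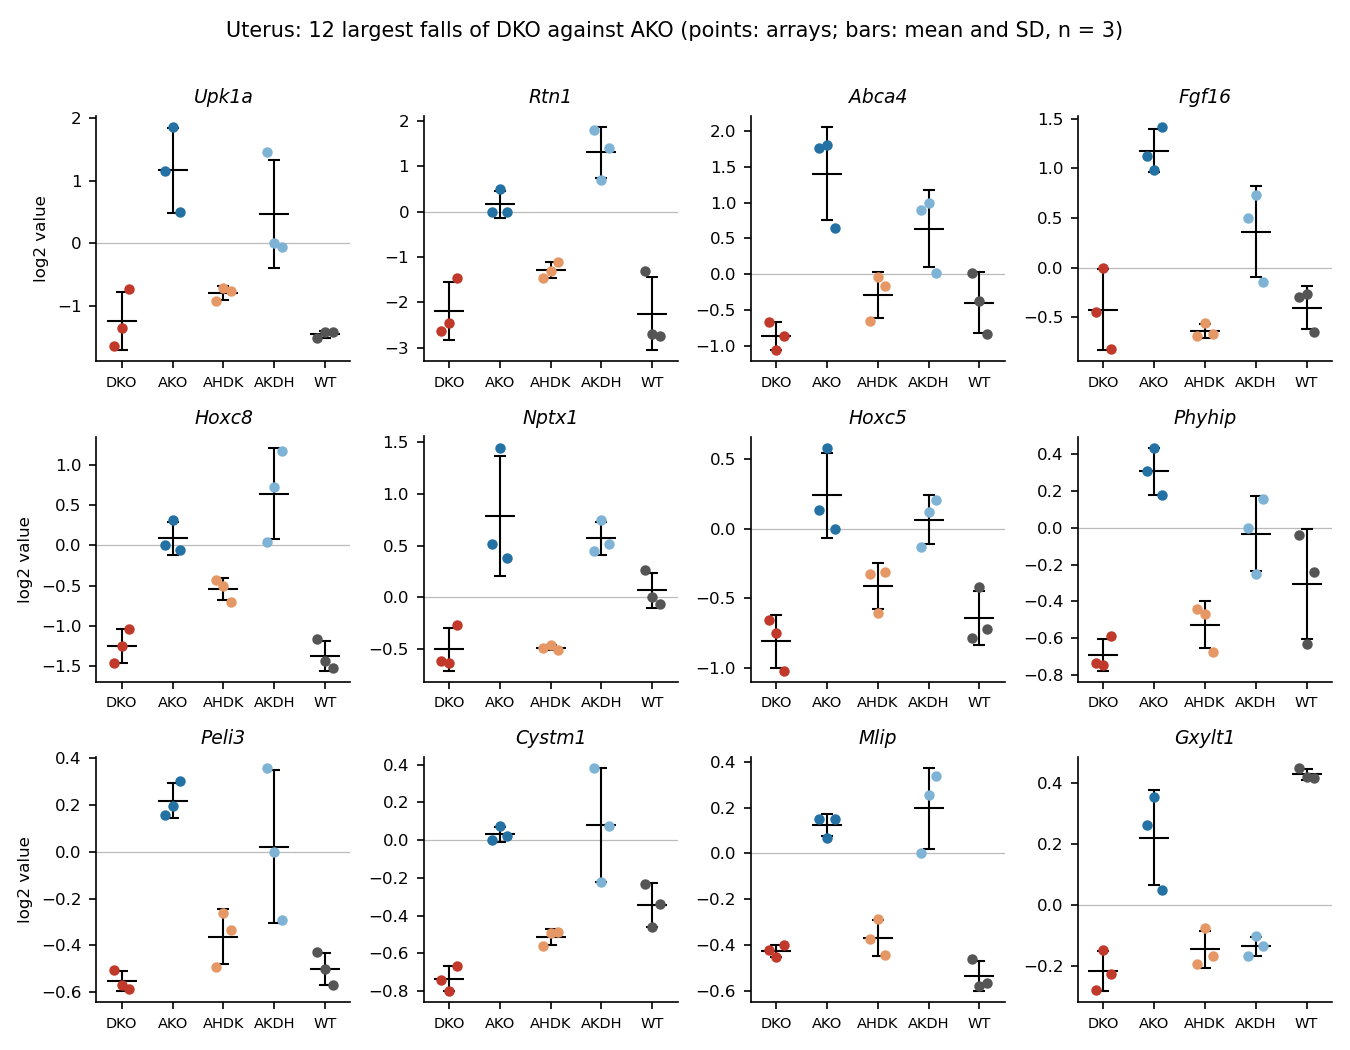
Deposited log2 values of the 12 genes with the largest called falls of DKO against AKO uterus, on each array (points) with group mean and SD (bars, n = 3), for DKO, AKO, AHDK, AKDH and WT from left to right; the vertical axes differ between genes. DKO and AKO do not overlap in any panel, and WT is as low as DKO for Upk1a, Rtn1, Hoxc8 and Fgf16 and as high as AKO for Gxylt1.

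Genes of the HoxC cluster, which neither mutation touches, were lower in DKO. Hoxc8 had -1.45, -1.25 and -1.04 in DKO, against 0.00, 0.32 and -0.06 in AKO (difference -1.33, SE 0.23, limma adjusted p = 0.0469). Hoxc5 had -0.65, -0.75 and -1.02 in DKO, against 0.13, 0.58 and 0.00 in AKO (difference -1.04, SE 0.16, adjusted p = 0.0282). Hoxc10, the paralogue of the targeted Hoxa10 and Hoxd10, had -0.36, -0.21 and -0.27 in DKO, against 0.82, 1.41 and 0.90 in AKO. That difference of -1.33 was as large as that of Hoxc8 but not called (adjusted p = 0.0893). Of 9 HoxC genes 8 were lower in DKO, 6 had groups that did not overlap, against 17.3% of all genes, and the median was -0.98.

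WT had low HoxC values too. Hoxc8 was -1.16, -1.44 and -1.52 there, and Hoxc9 was -0.60, -0.67 and -0.63 in DKO and -0.57, -0.60 and -0.63 in WT, against 0.18, 0.59 and 0.28 in AKO. The 2 genes nearest the end of the cluster, Hoxc12 (0.04) and Hoxc13 (-0.07), differed little.

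The other clusters moved less and held no called gene (limma). In HoxB 7 of 9 genes were lower in DKO (median -0.29), led by Hoxb5 at -0.70. Of these 4 had an unadjusted p below 0.05, against 6.4% of all genes. The 7 HoxA genes that were not targeted were all lower in DKO (median -0.33, from -0.70 for Hoxa5 to -0.11 for Hoxa13), 4 of them at an unadjusted p below 0.05, against the same 6.4%. The 6 HoxD genes that were not targeted were all higher in DKO (median 0.09), and Hoxd8, the neighbour of the targeted Hoxd9, had 0.43, 0.47 and 0.61 in DKO against -0.67, -0.20 and -0.19 in AKO (difference 0.85, adjusted p = 0.188). The other 5 of these HoxD genes had unadjusted p-values from 0.155 to 0.718. What part either mutation has in the shifts of these clusters was not tested.

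A microRNA gene was among the called falls. Mir218-1 had -0.22, -0.33 and -0.45 in DKO, against 0.77, 0.77 and 0.17 in AKO (difference -0.90, SE 0.14, limma adjusted p = 0.0282). It was named after its values were seen. The gene lies inside Slit2, whose own difference ran the same way, and a whole-transcript array cannot tell the hairpin from the host's primary transcript. Elsewhere they parted, with WT uterus means of -1.25 for Slit2 and -0.05 for Mir218-1. Between DKO and AKO vas deferens Slit2 differed by 0.85 and was called (limma adjusted p = 0.00491). Mir218-1 differed there by 0.14 and was not called (adjusted p = 0.367). The mature products are printed to identify the gene, from RefSeq (GRCm38.p6, plus strand) at chr5:48223966-48223986 and chr5:48224005-48224026, with the seed, bases 2 to 8, in capitals.
mmu-miR-218-5p: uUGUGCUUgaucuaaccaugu
mmu-miR-218-1-3p: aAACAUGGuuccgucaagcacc
Mir218-2, the other copy, was 0.33 lower in DKO and its groups overlapped (adjusted p = 0.233). The measured genes Mir200a, Mir200b, Mir200c and Mir141 belong to the miR-200 family, known from epithelia, and were also picked out afterwards. Mir200b had -1.77, -1.28 and -1.68 in DKO, against 0.93, 0.67 and -0.16 in AKO (difference -2.06, adjusted p = 0.0527), while Mir200a (-0.67), Mir200c (-0.70) and Mir141 (-0.25) were farther from a call.

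AHDK and AKDH uteri offer the same kind of contrast in arrays that DKO and AKO do not use, although all share one estimate of the spread. Between AHDK and AKDH 343 genes were called (1.72%), 186 higher in AHDK and 157 lower. The count was 14, 50 and 39 without AHDK replicate 1, 2 or 3, and 106, 588 and 111 without AKDH replicate 1, 2 or 3. Of the 37 genes called between DKO and AKO, 35 had the same sign there, against 62.8% of all genes, and 10 were called in the same direction. None was called the other way. AKDH replicates 1 and 2 stood apart on 6 markers of squamous epithelium of vagina or cervix, with means of 2.15 and 1.30. The mean was 0.04 on AKDH replicate 3 and 0.18 to 0.58 in AHDK. On DKO and AKO arrays it was highest on AKO replicate 3, at 0.60. One of these markers, Krt5, was 4.95 and 3.94 on AKDH replicates 1 and 2 and 0.52 on replicate 3. It was also high on arrays that were kept, at 1.16 to 2.40 in AHDK and 2.57 on AKO replicate 3, against -0.47 to -0.25 in WT. AHDK replicate 2 stood apart on the ovary marker Cyp11a1, at 3.24. Without these 3 arrays, where the lone AKDH array is assumed to vary like the other groups, 27 genes were called, 34 of the 37 had the same sign and 2 were called in the same direction. Without any one AHDK or AKDH array, 33 to 35 had the same sign and 2 to 10 were called in the same direction. With all arrays in the fit, the exceptions in sign were Rpl38 and Ldoc1, both with differences of nearly 0 (-0.02 and 0.01).

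The 5 rises called in both contrasts were Robo2, Aldh1a2, Masp1, Adamts7 and Aif1l. Masp1 had 0.81, 0.80 and 0.88 in AHDK, against -0.51, -0.42 and -0.53 in AKDH (difference 1.31, adjusted p = 0.0109). Robo2 had 1.14, 1.19 and 1.44 in AHDK, against -0.65, 0.00 and -0.29 in AKDH, and Aldh1a2 had 0.80, 1.36 and 1.45 against 0.00, -0.69 and -0.18. The AHDK values of Robo2 were lower than those of DKO on every array.

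The 5 falls called in both were Rtn1, Hoxc8, Nptx1, Cystm1 and Mlip. Rtn1 had -1.47, -1.31 and -1.11 in AHDK, against 1.80, 0.71 and 1.41 in AKDH (difference -2.60, adjusted p = 0.0148), and Hoxc8 had -0.43, -0.50 and -0.70 against 0.04, 0.73 and 1.17 (difference -1.19, adjusted p = 0.0334).

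Rxfp2, Slc26a7 and Smoc2, high in DKO, were near 0 in AHDK. Rxfp2 had 0.00, -0.13 and 0.03 in AHDK, against -0.66, -0.64 and -0.29 in AKDH, so that AHDK was at the AKO level and not at the DKO level. Slc26a7 had -0.41, 0.49 and 0.30 in AHDK, against -0.57, -0.35 and -0.63 in AKDH. Smoc2 had -0.06, -0.02 and 0.19 in AHDK, against -0.89, 0.11 and 0.00 in AKDH. The differences of 0.49, 0.64 and 0.29 were not called (adjusted p = 0.373, 0.484 and 0.658). Whether they differ from those between DKO and AKO was not tested.

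**Figure D4:**
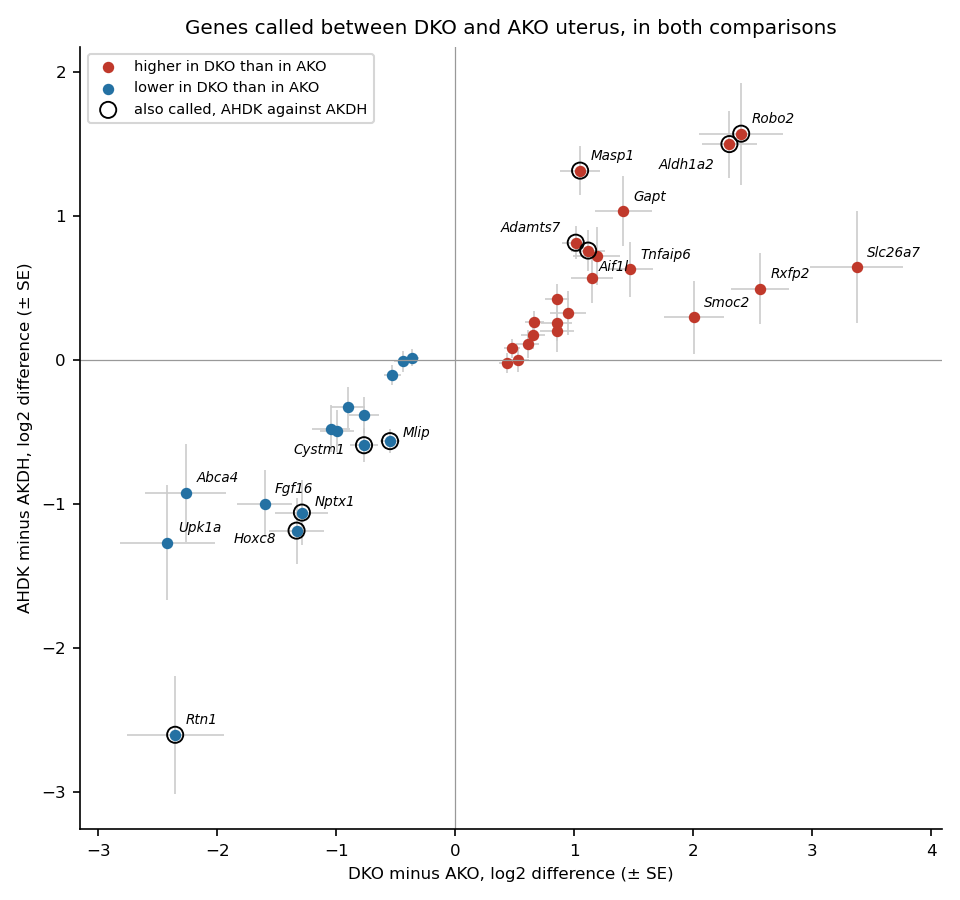
Log2 difference of AHDK minus AKDH (vertical, ± SE) against DKO minus AKO (horizontal, ± SE) for the 37 genes called between DKO and AKO uterus; red genes are higher and blue genes lower in DKO, and circles mark the 10 genes also called between AHDK and AKDH. Of the 37 points 35 lie on the same side of 0 in both contrasts, and Slc26a7 and Rxfp2 lie low for their size at 0.64 and 0.49.

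WT uteri place the difference. The WT mean lay between DKO and AKO for 26 of the 37 genes, beyond DKO for 8 and beyond AKO for 3. AKO was farther from WT than DKO for 26 genes and DKO was farther for 11. Both comparisons with WT use the same WT arrays, so the values are given side by side only. In all, 194 genes were called between DKO and WT (0.973%) and 18 between AKO and WT (0.0903%). Of the 37 genes 6 were called in the first and 11 in the second. Both counts rested on single arrays. Without DKO replicate 1, 2 or 3 the first was 133, 14 and 6, and without WT replicate 1, 2 or 3 it was 23, 2 and 3. The second was 2, 8 and 4 without AKO replicate 1, 2 or 3, and 40, 7 and 5 without WT replicate 1, 2 or 3. WT also stood apart on the score of small RNA genes given above. With that score as a covariate, limma called 0 genes between DKO and WT (819 at an unadjusted p below 0.05) and 9 between AKO and WT. Every WT array lay above every DKO and AKO array on the score, so the covariate largely overlaps with these contrasts. The lost calls therefore cannot tell whether the differences from WT hold apart from the score.

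In DKO against WT, Rxfp2 was -0.22, Robo2 -0.20, Tnfaip6 0.04, Epb41l3 -0.11 and Adamts7 0.13, none of them called. In AKO against WT the same genes were -2.78, -2.61, -1.43, -1.30 and -0.89, all called (limma adjusted p between 0.00187 and 0.0366). Upk1a was 0.21 in DKO against WT and 2.63 in AKO against WT, and Fgf16 was -0.02 and 1.58, called in AKO. Other genes departed in DKO. Gapt was 1.93 in DKO against WT (adjusted p = 0.0178) and 0.52 in AKO against WT (adjusted p = 0.542), and Gxylt1 was -0.65 (adjusted p = 0.00883) and -0.21 (adjusted p = 0.352). Sfrp1 was 1.80 in DKO against WT (adjusted p = 0.000918) and 0.85 in AKO against WT (adjusted p = 0.0533).

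The male duct showed another set of differences. In vas deferens 3551 genes were called between DKO and AKO (17.8%). Of the 37 uterine genes 24 had the same sign there, against 54.9% of all genes, 8 were called in the same direction and 3 in the opposite one. The same direction held for Smoc2 (1.29), Bmp3 (1.07), Scin (0.61), Snx24, Rpl38, Gxylt1, Peli3 and Phyhip. Nptx1 was 1.17 higher in DKO vas deferens, Cystm1 0.44 higher and Gapt 0.54 lower, each against its direction in uterus. Nptx1 had 1.04, 0.84 and 0.84 in DKO vas deferens, against -0.32, -0.08 and -0.40 in AKO vas deferens. Rxfp2 (0.21), Robo2 (-0.02) and Slc26a7 (-0.30) showed no called difference in vas deferens. Some markers of other tissues were called there. The muscle gene Myh4 had -0.14, -0.15 and 0.05 in DKO vas deferens, against 2.08, 2.20 and 3.24 in AKO. The fat gene Adipoq differed by -1.76 and the squamous keratin Krt4 by -1.66, while the muscle gene Acta1 was at 0.60 and not called. Their part in the vas deferens counts was not tested.

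The test of the difference between both tissues called 1176 genes (5.9%), and 25 of the 37 were among them. Since the 37 were chosen for their difference in uterus, that share is a description. The count of 1176 was 727 without AKO uterus replicate 2, 697 and 781 without DKO vas deferens replicates 1 and 2, and 698 and 761 without AKO vas deferens replicates 1 and 3. For Slc26a7 the uterine difference exceeded that of vas deferens by 3.67 (SE 0.52, limma adjusted p = 0.00017), for Rxfp2 by 2.35 (SE 0.30, adjusted p = 6.61e-05) and for Robo2 by 2.42 (SE 0.39, adjusted p = 0.000608). Smoc2 differed by 0.72 (adjusted p = 0.328) and Bmp3 by -0.41 (adjusted p = 0.563), which the test did not call.

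Among 45 lists of tract, signalling and cell type genes, 11 held a called gene, where 0.186% of all genes were called. The lists were chosen with earlier results of these data known, so that count is a description. The largest shift of a median was that of the mesothelium list (-0.88), followed by the uroplakins (-0.55). Macrophage and dendritic cell genes were higher in DKO for 27 of 29 members, 14 of them at an unadjusted p below 0.05 against 7.21% of all genes (median 0.51, all genes 0.00). The fractalkine receptor Cx3cr1 had 0.85, 0.61 and 0.54 in DKO, against -0.01, 0.00 and -0.05 in AKO, and Itgam had 1.53, 0.70 and 0.67 against -0.13, -0.02 and -0.03. Both separated the groups and neither was called (adjusted p = 0.125 and 0.158). The mean of the list was between 0.24 and 0.86 on DKO arrays and between 0.01 and 0.13 on AKO arrays.

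Neutrophil and eosinophil genes were higher in DKO for 17 of 22 members, 8 of them at an unadjusted p below 0.05 against 7.21% of all genes (median 0.48). The means of the list overlapped, from 0.21 to 1.24 in DKO and from -0.12 to 0.23 in AKO. Ccr3, the eotaxin receptor, had 3.13, 1.42 and 1.78 in DKO, against -0.31, -0.05 and 0.93 in AKO (difference 1.92, adjusted p = 0.104). Retnlg, a resistin-like protein of neutrophils, had 4.03, 2.56 and 2.84 in DKO, against -0.41, -0.28 and 2.39 in AKO. AKO replicate 3 was close to DKO for Retnlg, and without that array the difference of 2.57 (adjusted p = 0.139) became 3.48 and was called (adjusted p = 0.0137). That fit called 150 genes in all, against 37 with every array, and Retnlg was called under no other setting. DKO replicate 1 was the highest array for both genes.

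Of all 19938 genes, 10235 were higher in DKO. T, NK and mast cell genes were higher in DKO for 22 of 26 members, 8 at an unadjusted p below 0.05 against 7.21% of all genes (median 0.43). The T cell receptor chain Cd3g had 1.24, 1.55 and 0.41 in DKO, against -0.42, -0.57 and -0.25 in AKO (adjusted p = 0.146). Chemokines and their receptors were higher for 36 of 48, and matrix proteases and inhibitors for 17 of 20, with Mmp9 at 1.43 (adjusted p = 0.157). Cell cycle genes were higher for 30 of 32 (median 0.38), but 1 passed an unadjusted p of 0.05, and the mean of the list overlapped, from 0.17 to 0.85 in DKO and from -0.48 to 1.16 in AKO.

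Epithelial lists were lower in DKO, where 9703 of all 19938 genes were lower. Luminal epithelium genes were lower for 17 of 21, 8 of them at an unadjusted p below 0.05 against 6.4% of all genes (median -0.44). Between AHDK and AKDH the median of the same list ran the other way, at 0.17. The transcription factor Ehf had -1.14, -0.61 and -0.82 in DKO, against 0.10, 0.44 and 0.16 in AKO (adjusted p = 0.105), and Klf5 had -0.45, -1.09 and -0.95 against 0.19, 0.14 and 0.00 (adjusted p = 0.114). Claudins and tight junction genes were lower for 21 of 25 (median -0.22), with Cldn7 at -0.77. Uterine gland genes did not share this, with 8 of 13 lower, none at an unadjusted p below 0.05 and a median of -0.08.

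Adipocyte genes were lower in DKO for 16 of 18 (median -0.36) and endothelial genes for 16 of 19 (median -0.22), and the means of both lists overlapped between the groups. Between AHDK and AKDH the endothelial median was -0.01. Smooth muscle genes, 18 of 31 lower, oestrogen-responsive genes, 13 of 23 higher, and ribosomal protein genes, 8 of 18 higher, had medians of -0.03, 0.02 and -0.05. Markers of oviduct and ovary were flat, with means between -0.05 and 0.03 on DKO arrays and between -0.09 and 0.09 on AKO arrays. Because the values are centred, the presence of a cell type cannot be read from them. Esr1, Pgr, Acta2, Myh11, Krt8, Krt18, Vim, Pdgfra and Foxa2 were not called. The largest of their differences were those of Pdgfra at 0.57 and Krt18 at -0.53.

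**Figure D5:**
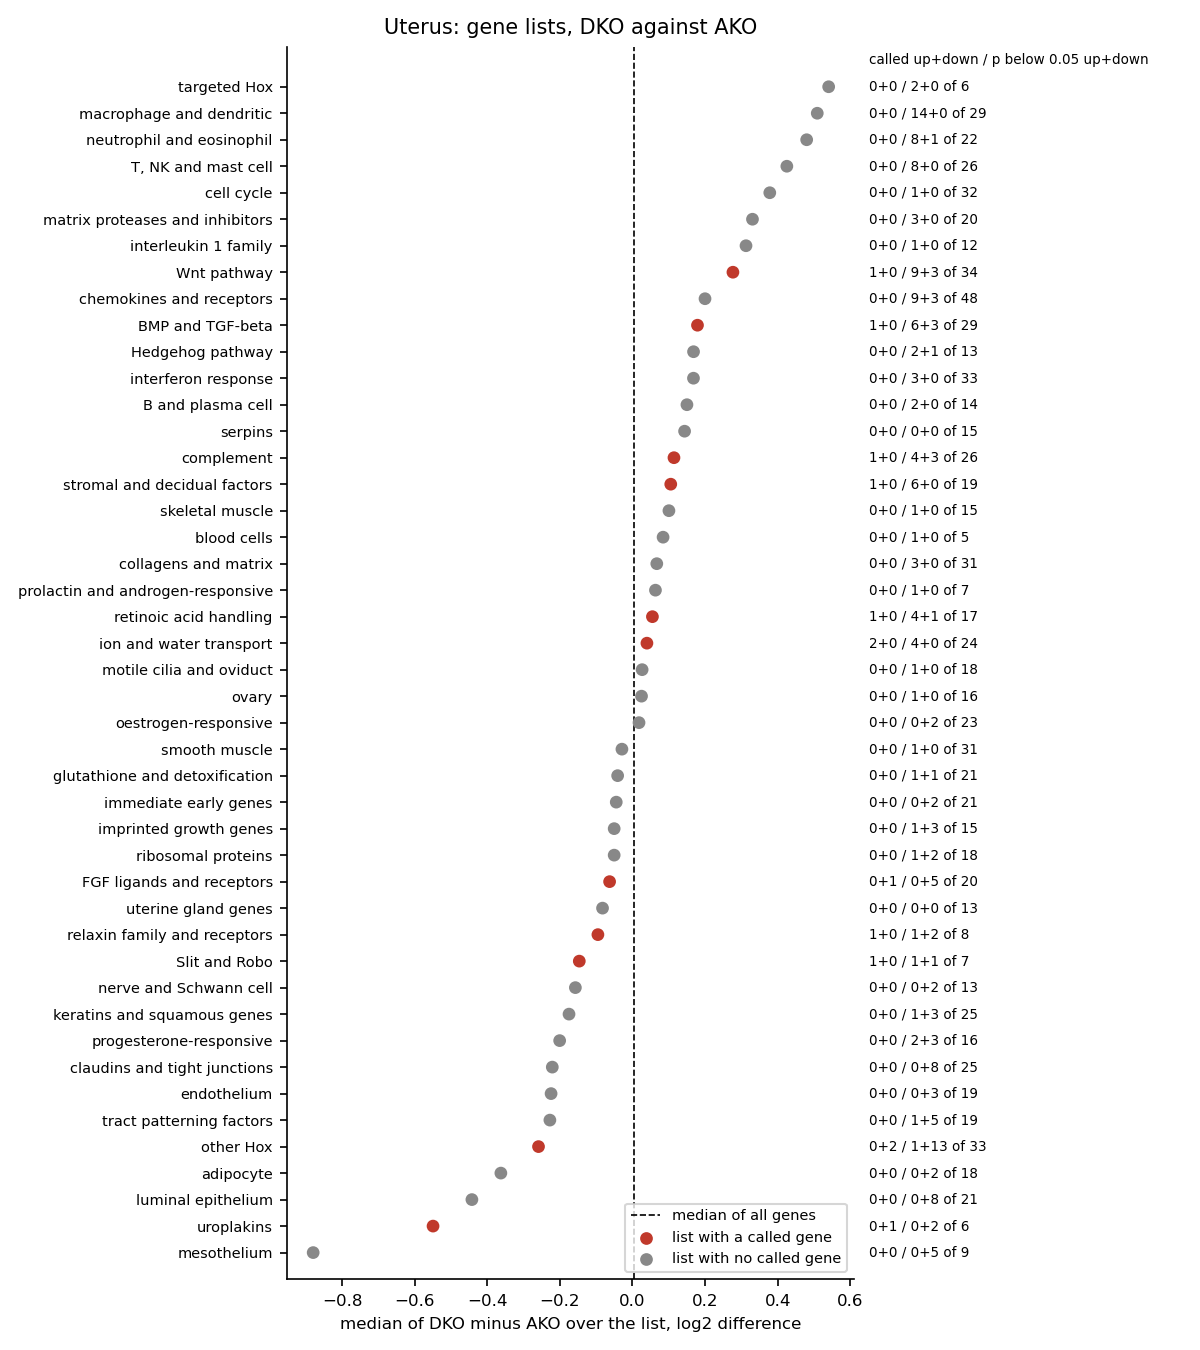
Median log2 difference of DKO minus AKO uterus over the measured members of each of 45 gene lists, with the median of all genes as a dashed line; red lists hold at least 1 called gene. The figures at the right give, for each list, members called higher and lower, members higher and lower at an unadjusted p below 0.05, and members measured; macrophage and dendritic genes lie at 0.51 and mesothelium genes at -0.88, both with no called gene.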

How the data were processed

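The table of log2 values deposited by the authors held 28856 probe sets on 42 arrays, 15 of them from uterus. It is on a log scale whose base is not stated and was taken as log2. Per the labels' protocols, fresh tissue gave total RNA by column extraction, and cDNA made from 300 ng of it was fragmented and biotinylated. How probe signals were summarised and normalised is not given in the sources used. The median of every probe set was 0 within the 21 female arrays and within the 21 male ones. Signal over background is therefore lost, a higher value was read as more RNA, and female and male values were compared only as differences within a sex. The medians of the DKO and AKO uterus arrays lay between 0.00 and 0.04. The number of arrays limits the precision.

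Of the probe sets, 21789 carried 1 gene symbol in the platform annotation, 1621 carried several and 5446 none. Of the first, 21698 matched the RefSeq gene table (GRCm38.p6) by gene ID. Probe sets were averaged per gene, giving 19938 genes, 999 with more than 1 probe set. Comparisons were contrasts from lmFit and eBayes of limma 3.58.1 (R 4.3.3) over all 15 uterus arrays, or 30 uterus and vas deferens arrays for the difference between tissues, with Benjamini-Hochberg adjustment over 19938 genes. The same code was tested on simulated data. Named genes comprise the 6 targeted ones, the 12 largest called rises and 12 largest called falls whose groups did not overlap (uncharacterised transcripts, olfactory and vomeronasal receptors, pseudogenes and small RNAs passed over), and up to 4 genes of each list with the smallest p. The genes, lists and tests were chosen with earlier results of these data known. A planned filter on dim probe sets became a filter on spread, since no signal is left. Alternatives were the arrays in the fit, a replicate block, quantile normalisation, centring, single probe sets, the variance model, array weights, a small RNA covariate and leaving out each array. Leaving out arrays and the covariate in the comparisons with WT, and leaving out 3 arrays together between AHDK and AKDH, were chosen after seeing the data.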

Additional observations from a re-analysis of the deposited data

Results flagged for a closer look

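The difference between DKO and AKO was not the same in uterus and vas deferens for 17 of the genes named by rule, by limma's test of the difference between the tissues (adjusted over 19938 genes). Apart from Hoxd9, they were chosen for their uterine difference in the same arrays, so the size of the gap is a description. The AKO vas deferens arrays also stood high on some markers of other tissues, as given above. The gap, uterine difference minus that of vas deferens, was 1.11 for Hoxd9 (adjusted p = 0.0419), which was 0.11 in uterus and -1.01 in vas deferens. It was 3.67 for Slc26a7, 2.42 for Robo2, 2.35 for Rxfp2, 1.95 for Gapt, 1.83 for Aldh1a2, 1.69 for Epb41l3 and 1.44 for Tnfaip6. It was 1.08 for Masp1, 1.07 for Aif1l and 1.02 for Adamts7. The gaps below 0 were -2.56 for Rtn1, -2.46 for Nptx1, -2.03 for Abca4, -1.51 for Fgf16, -1.21 for Cystm1 and -0.90 for Hoxc5. Over these 16 genes the adjusted p ran from 5.26e-05 for Cystm1 to 0.00606 for Hoxc5. Nptx1, Cystm1 and Gapt were called in opposite directions in both tissues. Groups of 3 arrays were too small to test for a single array that stands apart.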

How the results depend on the processing

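All 37 genes called between DKO and AKO uterus kept their direction under every alternative in which they were tested (36 of them under the filter on spread). The count of 37 was 1 with only the 6 DKO and AKO arrays, 2 with the trend and robust variance model, 6 with the small RNA covariate, 58 after quantile normalisation, and between 7 and 150 without one array. It was 37 with arrays centred on their median, 44 for single probe sets, 51 with array weights and 53 with the filter on spread. With the replicate number as a block it was 18, of which 16 were among the 37. Arrays with the same number deviated from their group means with correlations of 0.25, -0.14 and 0.17 over genes. Not every array correlated best with its own number. With 3 arrays per group, these correlations cannot tell whether arrays with the same number share more than that number. For AHDK against AKDH the count of 343 was 216 with only those 6 arrays, 309 with the block, 27 without the 3 arrays that stand apart on squamous or ovary markers, and between 14 and 588 without one array. The count of 1176 genes that differ between tissues lay between 697 and 1437. For DKO against WT it was 194, 0 with the small RNA covariate (819 at an unadjusted p below 0.05) and between 2 and 133 without one array, and for AKO against WT 18, 9 with that covariate, and between 2 and 40. The fit on 6 arrays has fewer arrays to estimate the spread from, but the cause of the change was not tested for any setting. Among named genes that were not called, Bmp7 was called after quantile normalisation (adjusted p = 0.0331), with array weights (0.0369) and with the filter on spread (0.0236), and the sign of Hoxa9, whose difference was 0.07, turned under 4 settings.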

Other observations

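Transcription factors that pattern the ducts included genes that separated the groups without a call (limma). Tbx2 had -0.95, -0.94 and -0.60 in DKO, against -0.06, 0.05 and 0.09 in AKO (difference -0.85, adjusted p = 0.0793), and Dach1 differed by -0.80 (adjusted p = 0.122). Both were called between AHDK and AKDH, Tbx2 at -0.98 (adjusted p = 0.0274) and Dach1 at -0.98 (adjusted p = 0.0368). Pax2, needed for the ducts to form, was 0.75 lower in DKO (adjusted p = 0.185) and Eya1 0.71 higher (adjusted p = 0.192).

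Other differences varied between the arrays of a group. The cytokine Il1b had 2.21, 0.40 and 0.00 in DKO, against -0.20, -0.03 and -0.04 in AKO (difference 0.96, adjusted p = 0.473), and Kap, an androgen-regulated protein known from kidney, had 1.92, 0.82 and -0.02 against -0.12, 0.04 and 0.11 (difference 0.90, adjusted p = 0.351). Kap was called between AHDK and AKDH, at 4.11 (adjusted p = 0.00264). Igf2, an imprinted growth factor, had -0.40, -0.79 and 0.27 in DKO, against 0.90, 1.05 and 0.29 in AKO (difference -1.06, adjusted p = 0.106). Without AKO replicate 3, a fit that called 150 genes in all, the difference of Igf2 was -1.28 and was called (adjusted p = 0.0448). Igf2 was called under no other setting. The endocytic receptor Lrp2 differed by -2.33 (adjusted p = 0.317), with DKO replicate 3 at 0.71 and the other DKO arrays at -2.66 and -1.91.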
